A study of Mus musculus with 48 samples.

Results

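The 45 genes described here are targets of the transcription factor NRF2, genes of glutathione metabolism and other antioxidant genes of the mouse liver. The list was drawn up by gene name, with earlier results of these data known. Each gene was read from a probe set (the group of short probes that reports on 1 transcript) annotated to that gene alone, older symbols allowed, and where several existed the probe set with the highest mean over the 24 arrays was taken. By this rule 40 of the 45 genes were measured, among 17075 genes read in the same way and 45141 probe sets in all. *Gsta3*, *Keap1*, *G6pdx*, *Prdx6* and *Mt2* had no such probe set, and *Gsta3*, *Keap1* and *Mt2* were read from a separate table of values per gene made from the same arrays. *G6pdx* and *Prdx6* were not analysed here.

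The livers of 24 mice, all aged 11 weeks, were each measured on 1 Affymetrix array to ask how a defect in DNA repair, less food and rapamycin changed gene expression. *Ercc1*Δ/- mice carry a null allele and a truncated allele of *Ercc1*, which encodes part of the nuclease that cuts out damaged bases and crosslinks, in every tissue and from conception. They received control diet ad libitum (Control, n = 5), 30% less food (DR 30%, n = 5) or control diet with 14 ppm of encapsulated rapamycin ad libitum (Rapa 14 ppm, n = 4). Wild-type littermates received control diet ad libitum (WT-Control, n = 5) or 30% less food (WT-DR, n = 5). All groups shared the F1 C57BL6J/FVB hybrid background and the same synthetic feed. Restriction began at 7 weeks of age with 10% less food and reached 30% at 9 weeks, and the labels give the start of rapamycin as either 4 or 8 weeks without saying which applied to these mice. The first records of 20 mice carry a mark of re-analysis and those of the 4 Rapa 14 ppm mice do not, so that any difference in how these arrays were handled and the rapamycin diet cannot be told apart.

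The arrays had medians of 4.16 to 4.21 on the log2 scale. *Ercc1* read 5.26 to 5.47 in Control against 6.57 to 6.85 in WT-Control. The summed level of 7 hepatocyte markers lay between 16.62 and 16.74 in every mouse, and 0 of the 7 changed in any comparison. The summed level of 7 macrophage and Kupffer cell markers was 11.66 to 12.00 in WT-Control, 11.17 to 11.75 in WT-DR, 11.93 to 12.54 in Control, 11.82 to 12.66 in DR 30% and 11.99 to 12.49 in Rapa 14 ppm, and that of 4 neutrophil markers was at most 6.39 in the wild-type groups and at least 6.43 in the *Ercc1*Δ/- groups. Of the 4 neutrophil markers 2, *S100a8* and *S100a9*, were called higher in both comparisons of *Ercc1*Δ/- with WT mice on the same diet. *Ngp* and *Camp* were called in neither. The lowest log2 fold change of the 4 was -0.05 in Control vs WT-Control and -0.25 in DR 30% vs WT-DR. Stellate cell markers summed to 12.47 to 12.65 in Control against 11.78 to 12.25 in WT-Control (1 of 7, *Lum*, called), and lymphocyte markers to 7.84 to 8.15 against 7.39 to 7.68 (1 of 4, *Ptprc*, called). The median log2 fold change was 0.48 for the stellate cell markers (0.05 to 0.96) and -0.02 for the lymphocyte markers (-0.07 to 0.59, the highest being *Ptprc*). Of all genes, 2.49% were called higher in Control vs WT-Control and 4.22% in DR 30% vs WT-DR. The part of these cells in the results below was not tested. In bulk liver, a change in the number of cells of a type and a change of RNA per cell cannot be told apart.

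NRF2, encoded by *Nfe2l2*, is a transcription factor that is bound by KEAP1 and degraded in unstressed cells. Electrophiles and oxidants modify KEAP1, NRF2 then accumulates, pairs with small MAF proteins and binds antioxidant response elements near its target genes. Its best known liver targets are the quinone reductase *Nqo1*, the enzymes that make and recycle glutathione, the glutathione transferases that couple glutathione to reactive compounds, and the thioredoxin and sulfiredoxin enzymes that repair oxidised proteins. Metallothioneins, which bind zinc and copper, respond mainly to the metal-sensing factor MTF1 through metal response elements and to glucocorticoids.

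To show where such elements lie in genes whose values are described below, the letters TGACNNNGC (core of the antioxidant response element, N standing for any base) and TGCACNC or TGCGCNC (core of the metal response element) were searched on both strands of 300-base windows from RefSeq (GRCm38.p6), each from 250 bases before to 50 after a transcription start. Of the 45 genes, 38 had a window. The first core was found in windows of 14 of the 38 genes (36.8%), beside 14% of 27025 genes, and the second in those of 11 of the 38 (28.9%), beside 28.2%. Of the genes called below, *Srxn1*, *Ugdh*, *Nfe2l2*, *Pgd*, *Abcc4* and *Mt2* held the first core, and the windows of *Nqo1*, *Gsta2*, *Gstm3*, *Cbr1*, *Cbr3* and *Mgst3* did not hold these letters. Sequence outside the windows was not searched, so that a gene without a match may still have the element farther from its start. The stretches around the matches in 5 of them, with the core in capitals, are shown for comparison, the gene's strand reading 5′ to 3′.
Srxn1 (chr2:152105540-152105572, plus strand): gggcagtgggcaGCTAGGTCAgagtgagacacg
Ugdh, first match (chr5:65435954-65435986, minus strand): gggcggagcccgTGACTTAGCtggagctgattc
Ugdh, second match (chr5:65435916-65435948, minus strand): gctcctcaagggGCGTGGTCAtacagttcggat
Nfe2l2 (chr2:75704883-75704913, minus strand): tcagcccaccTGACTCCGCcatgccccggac
Pgd (chr4:149166059-149166091, minus strand): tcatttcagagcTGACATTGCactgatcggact
Mt2 (chr8:94172527-94172559, plus strand): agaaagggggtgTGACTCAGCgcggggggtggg

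In the stretches of *Srxn1* and of the second *Ugdh* match the core lies on the opposite strand and reads as its reverse complement. The cores shown for *Pgd* and *Srxn1* begin 3 and 28 bases after the annotated transcription start, within the transcribed sequence. Whether the start annotated for the *Pgd* window is used in liver was not tested, so that its match may not lie at a promoter. Those shown for *Ugdh*, *Nfe2l2* and *Mt2* begin before it. The core of *Mt2* also contains TGACTCA, the letters of the AP-1 motif, so that the match does not tell the motifs apart. The neighbouring genes *Mt1* and *Mt2* are shown as whole windows, with every metal response element core in capitals, because their values moved most with restriction. The window of *Mt1* held 3 such cores and that of *Mt2* held 4. A match of letters is not a site shown to be bound.
Mt1 (chr8:94178839-94179138, plus strand): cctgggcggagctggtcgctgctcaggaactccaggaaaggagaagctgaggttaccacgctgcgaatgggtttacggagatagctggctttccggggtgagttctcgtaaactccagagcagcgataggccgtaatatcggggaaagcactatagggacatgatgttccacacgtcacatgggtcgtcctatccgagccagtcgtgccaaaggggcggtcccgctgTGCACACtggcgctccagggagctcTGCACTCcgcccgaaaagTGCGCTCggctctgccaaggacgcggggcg
Mt2 (chr8:94172368-94172667, plus strand): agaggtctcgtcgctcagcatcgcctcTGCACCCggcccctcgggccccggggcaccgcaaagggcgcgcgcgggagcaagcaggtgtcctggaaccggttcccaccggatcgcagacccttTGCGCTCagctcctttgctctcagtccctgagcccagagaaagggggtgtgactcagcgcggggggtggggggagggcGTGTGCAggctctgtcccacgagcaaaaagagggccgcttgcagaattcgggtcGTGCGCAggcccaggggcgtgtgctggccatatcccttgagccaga

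The groups were compared in 1 limma model over all 45141 probe sets, and a gene was called where the false discovery rate (FDR, Benjamini-Hochberg within a comparison) was under 0.05 and the fold change at least 1.5. Of the 40 measured genes, 19 were called in at least 1 of 7 comparisons and 21 in none. The share of all genes called in at least 1 comparison was not counted, so that these numbers are a description only. Shares for each comparison are given below. Only *Nqo1* and *Gsta2* were called in all 4 comparisons of genotype or restriction. The other called genes fell into those called for genotype under both diets (*Gstm3*, which was also called for restriction in WT mice, *Srxn1*, *Ugdh* and *Cbr3*), those called for restriction in both genotypes (*Gstt2*, *Mgst3*, *Cbr1* and *Mt1*), and those with other patterns of calls (*Nfe2l2*, *Gstm6*, *Gstp1*, *Gclc*, *Abcc3*, *Abcc4*, *Pgd*, *Ephx1* and *Aox1*). The signs of 40 genes over 7 comparisons are shown in the heat map of fold changes.

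**Figure D1:**
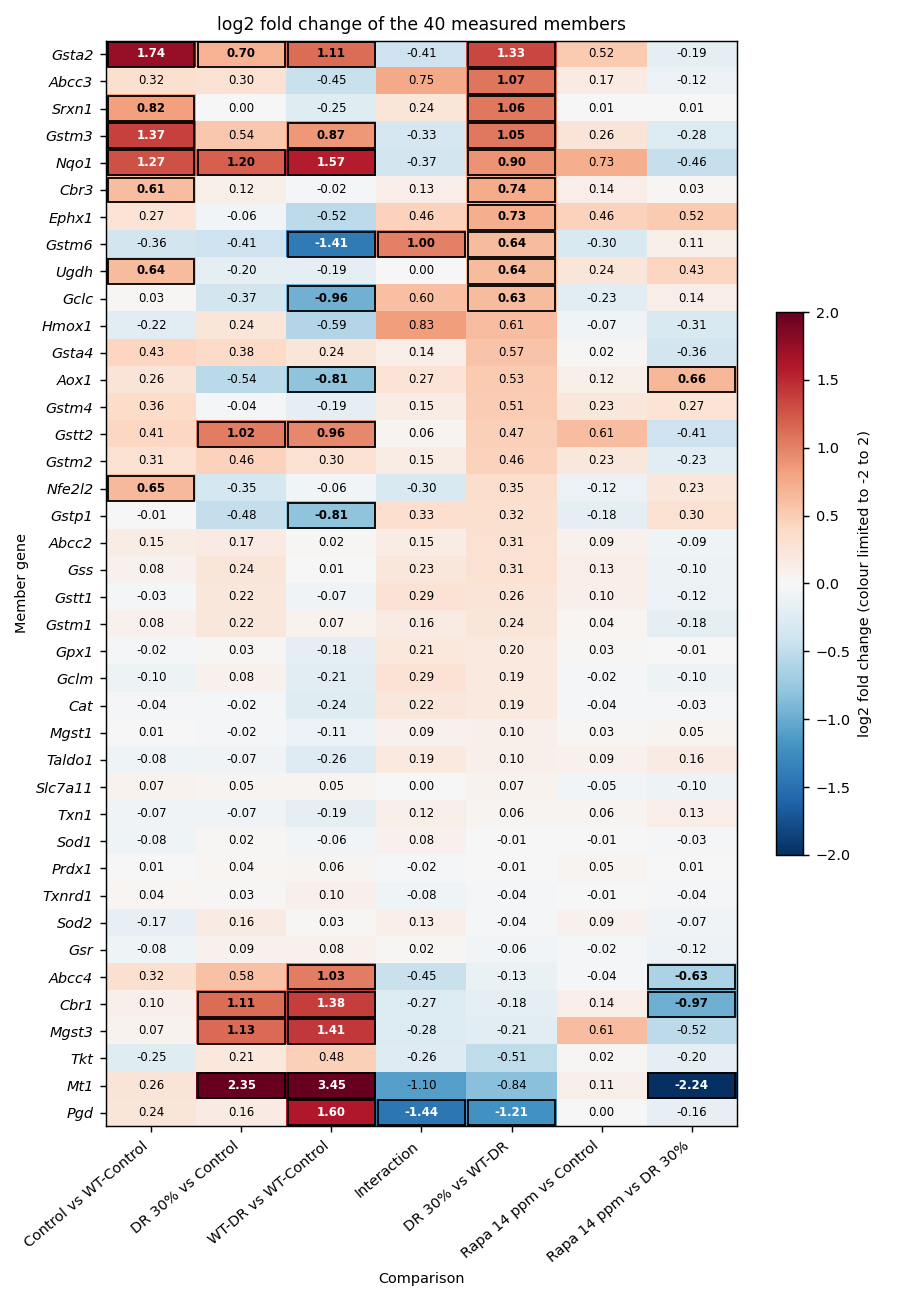
Heat map of log2 fold changes of the 40 measured genes (rows, ordered by DR 30% vs WT-DR) in 7 comparisons (columns), first group minus second, with boxes around called values. Most boxes in the comparisons of genotype are positive, and the rows of *Cat*, *Sod1*, *Sod2*, *Gpx1*, *Prdx1*, *Txnrd1* and *Gsr* hold none.

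Fed ad libitum, *Ercc1*Δ/- livers had higher levels of 7 of the 40 genes than WT livers and lower levels of 0, where 1.63% of all probe sets were called higher and 0.888% lower (2.49% and 1.11% of the 17075 genes). The 7 were the glutathione transferases *Gsta2* (3.33-fold) and *Gstm3* (2.59-fold), the quinone reductase *Nqo1* (2.41-fold), the sulfiredoxin *Srxn1* (1.76-fold), *Nfe2l2* itself (1.57-fold), the UDP-glucose dehydrogenase *Ugdh* (1.56-fold), which supplies glucuronic acid, and the carbonyl reductase *Cbr3* (1.53-fold). The median log2 fold change was 0.08 over the 40 genes and -0.01 over all genes.

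*Nqo1*, which reduces quinones without forming radicals, read 5.58, 5.91, 5.64, 5.57 and 5.53 in the WT-Control mice and 7.49, 6.38, 6.80, 6.65 and 7.24 in the Control mice. Every Control mouse was thus above every WT-Control mouse, and the values in Control were spread more widely (SD 0.45 against 0.15). The log2 fold change was 1.27 ± 0.15 (SE, adjusted p = 5.9e-06, limma). For *Gsta2*, an alpha-class glutathione transferase that also reduces lipid peroxides, the WT-Control mice read 8.48, 8.37, 9.03, 9.07 and 8.31 and the Control mice 10.86, 9.74, 9.92, 10.44 and 10.98. Again the groups did not overlap, and the log2 fold change of 1.74 ± 0.20 (adjusted p = 5.7e-06, limma) was the highest of the 40 genes in this comparison.

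*Gstm3*, of the mu class, read 9.47, 9.06, 9.49, 9.06 and 9.45 in WT-Control and 11.14, 10.82, 10.72, 10.65 and 10.08 in Control. The difference of 1.37 ± 0.17 (adjusted p = 1.6e-05, limma) was larger than the spread in either group, although the probe set of *Gstm3* is of a type that may detect related genes of its family. *Srxn1*, which restores overoxidised peroxiredoxins, read 7.64, 7.46, 8.06, 7.75 and 7.81 in WT-Control and 8.87, 8.45, 8.61, 8.48 and 8.39 in Control, again without overlap (log2 fold change 0.82 ± 0.13, adjusted p = 3.0e-04, limma). Its probe set too is of that type, and the second brightest of its 4 probe sets was also called (0.63, adjusted p = 0.00461, limma), whereas the mean of all 4 was not. *Ugdh* read 10.51, 10.30, 10.90, 10.44 and 10.31 in WT-Control and 11.32, 11.23, 10.86, 11.08 and 11.19 in Control. Only the Control mouse at 10.86 was below the highest WT-Control mouse, at 10.90 (log2 fold change 0.64 ± 0.12, adjusted p = 8.5e-04, limma). *Cbr3* was dim, at 4.55 to 5.04 in WT-Control and 4.89 to 5.58 in Control, and its call (0.61 ± 0.15, adjusted p = 0.0136, limma) was lost when any of 5 single mice was left out and in the values per gene (0.55).

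**Figure D2:**
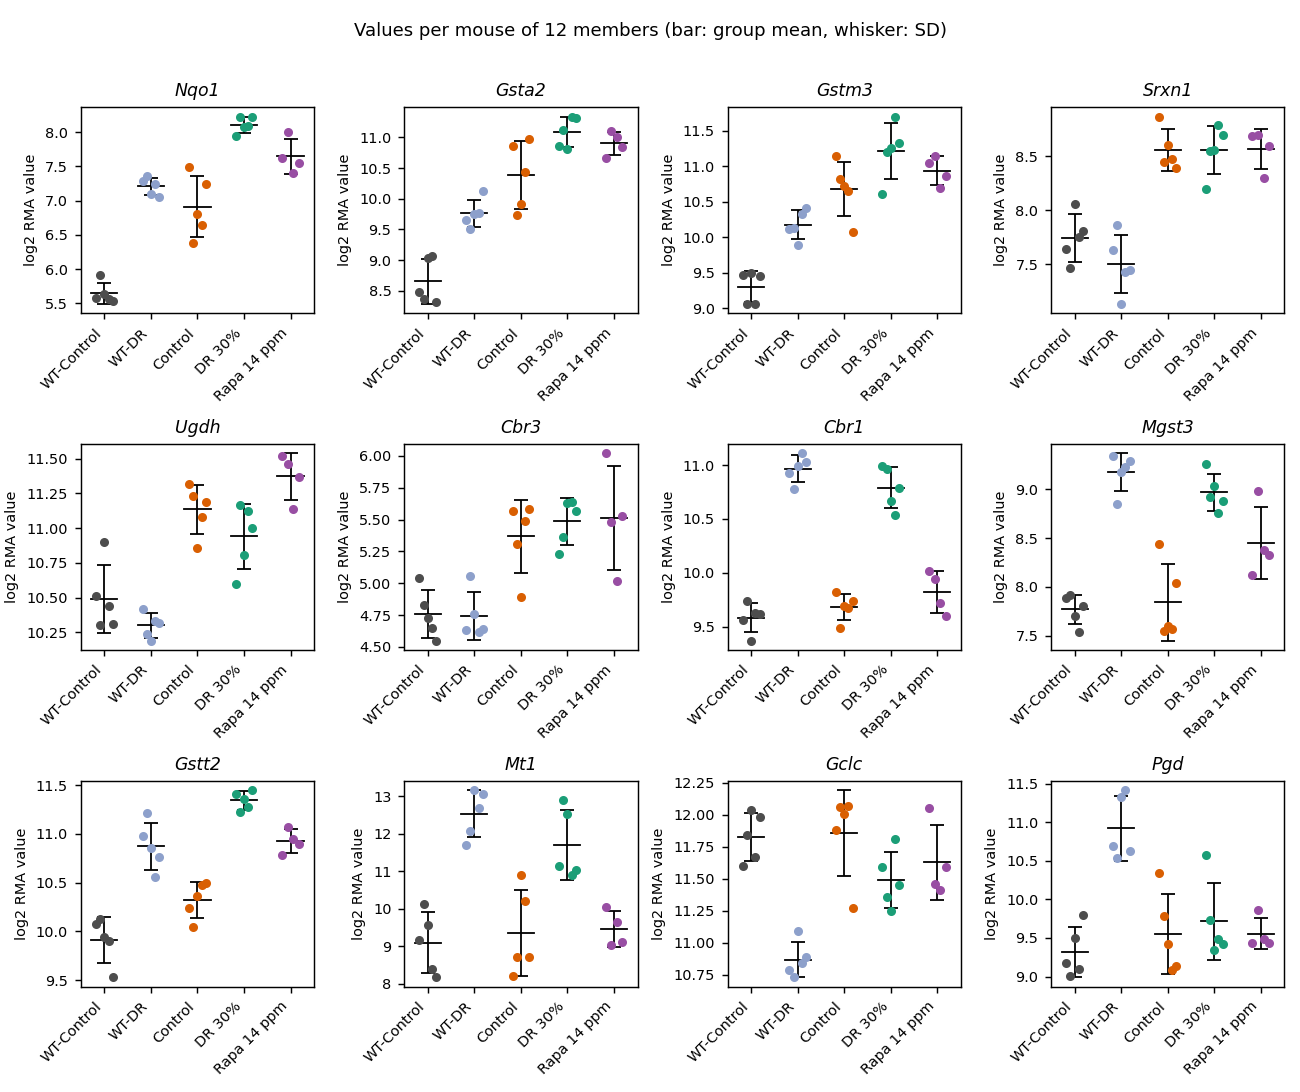
Values of 12 genes in each mouse (points, log2 RMA value) in the 5 groups, with the group mean (bar) and SD (whisker). In the upper row, *Ugdh* and *Cbr3* the means of the 3 *Ercc1*Δ/- groups lie above WT-Control, in *Cbr1*, *Mgst3*, *Gstt2* and *Mt1* the restricted groups lie above the control diet of the same genotype, in *Gclc* WT-DR is lowest, and in *Pgd* WT-DR is highest.

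The genes of glutathione synthesis and recycling were not called by genotype in mice fed ad libitum. Of *Gclc*, *Gclm*, *Gss*, *Gsr* and *Slc7a11*, 0 of 5 passed the test, with log2 fold changes of -0.10 to 0.08. *Gclc*, the catalytic subunit of the rate-limiting enzyme of glutathione synthesis, read 11.60, 11.84, 12.04, 11.67 and 11.98 in WT-Control and 11.88, 12.06, 12.01, 12.07 and 11.27 in Control, where 1 mouse lay below all others of both groups. *Gclm*, its modifier subunit, read 11.43, 11.43, 11.45, 11.41 and 11.33 in WT-Control and 11.29, 11.32, 11.44, 11.40 and 11.08 in Control. These groups overlapped for both subunits. *Gsr*, which regenerates reduced glutathione, read 9.22, 8.90, 9.36, 9.12 and 9.06 against 9.27, 8.95, 9.03, 9.08 and 8.94 (95% interval of the difference -0.24 to 0.08). *Txnrd1*, the cytosolic thioredoxin reductase, read 9.66, 9.38, 9.67, 9.65 and 9.57 against 9.90, 9.61, 9.63, 9.60 and 9.37 (-0.13 to 0.21). *Hmox1*, the haem oxygenase, was low and variable, at 6.06, 5.24, 5.58, 6.24 and 5.64 against 5.02, 5.41, 5.73, 5.93 and 5.57 (-0.73 to 0.29). *Slc7a11*, the cystine importer, read 2.76 to 3.21 over these groups, below the median of all probe sets (4.19), so that a change of this gene may lie under the range of the array.

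Of the genes whose products remove peroxides and superoxide directly, 0 were called in any comparison by their brightest probe set. *Cat* (catalase), *Sod1* and *Sod2* (superoxide dismutases), *Gpx1* (glutathione peroxidase), *Prdx1* (peroxiredoxin) and *Txn1* (thioredoxin) had mean levels of 11.22 to 13.83 on the log2 scale over the 5 groups. Their SD within a group was at most 0.15, and their log2 fold changes ran from -0.24 to 0.22 over the 7 comparisons. The lowest of these were in WT-DR vs WT-Control, at -0.24 for *Cat* (adjusted p = 0.0119), -0.19 for *Txn1* (adjusted p = 0.0124) and -0.18 for *Gpx1* (adjusted p = 0.01, limma). All WT-DR mice were below all WT-Control mice in these 3 genes, by less than the fold change asked for. A second, dimmer probe set of *Sod1* (mean 6.45, against 12.59 for the one used) was called higher in WT-DR vs WT-Control (0.90, adjusted p = 0.00611, limma), where the brighter one gave -0.06. A dimmer probe set of *Sod2* (mean 8.27) gave -0.40 in WT-DR vs WT-Control (adjusted p = 4.1e-04) and 0.40 in Rapa 14 ppm vs DR 30% (adjusted p = 0.00375, limma), below the fold change asked for. *Mgst1*, an abundant microsomal transferase, was as flat by its brightest probe set, at group means of 13.62 to 13.77. The highest value on any array was 14.51, and whether probe sets this bright can still show a rise was not tested.

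On control diet *Nfe2l2* was called by genotype and *Keap1* was not, and a difference between these genes was not tested. *Keap1*, in the values per gene, read 6.78, 6.54, 6.85, 6.66 and 6.79 in WT-Control and 6.64, 6.62, 6.70, 6.65 and 6.53 in Control and was called in 0 comparisons. *Nfe2l2* read 9.55, 9.97, 10.04, 10.13 and 10.12 in WT-Control and 10.76, 10.69, 10.59, 10.61 and 10.41 in Control, a difference of 0.65 ± 0.11 (adjusted p = 4.0e-04, limma) with no overlap. The highest mean was that of Control, and without the WT-Control mouse at 9.55 the difference was 0.55 and was not called. In DR 30% the gene read 9.94, 10.24, 10.25, 10.60 and 10.27 and in WT-DR 10.04, 9.70, 9.84, 9.87 and 10.08, and neither restriction comparison was called (-0.35 ± 0.11, adjusted p = 0.0454, and -0.06 ± 0.11, adjusted p = 0.783, limma).

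A second, dimmer probe set of *Nfe2l2* gave another picture. It read 6.08 to 6.83 in WT-Control, 7.83 to 9.40 in WT-DR, 7.46 to 7.97 in Control, 8.17 to 9.07 in DR 30% and 7.29 to 8.06 in Rapa 14 ppm. By this probe set Control lay above WT-Control (1.15 ± 0.22, adjusted p = 0.00191), DR 30% above Control (0.92 ± 0.22, adjusted p = 0.0109) and WT-DR above WT-Control (2.26 ± 0.22, adjusted p = 2.2e-07, limma). The interaction of this probe set was also called (-1.34, adjusted p = 0.0409), as was Rapa 14 ppm vs DR 30% (-0.90, adjusted p = 0.0276, limma). Both probe sets gave a higher level in *Ercc1*Δ/- livers fed ad libitum. Under restriction they moved in opposite directions in *Ercc1*Δ/- mice (-0.35 and 0.92), and in WT mice only the dimmer one changed (-0.06 and 2.26). The values per gene, at 0.65, -0.35 and -0.05 in these comparisons, followed the brighter one. Which transcript the dimmer probe set reports was not tested.

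**Figure D3:**
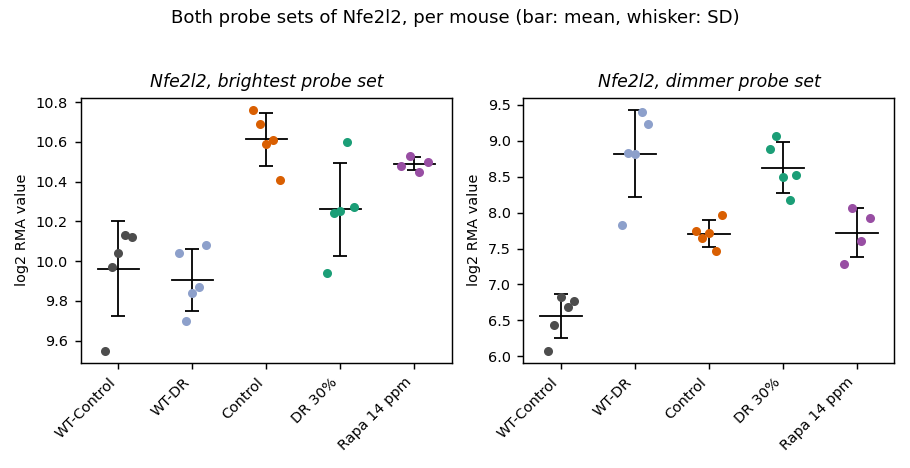
Log2 RMA values of the brighter (left) and the dimmer (right) probe set of *Nfe2l2* in each mouse of the 5 groups, with mean (bar) and SD (whisker). On the left Control has the highest mean, and on the right WT-DR and DR 30% lie above the ad libitum groups of the same genotype.

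Restriction of *Ercc1*Δ/- mice raised 6 of the 40 genes and lowered 0, where 1.49% of all probe sets were called higher and 0.948% lower in DR 30% vs Control (1.84% and 1.22% of genes). The 6 were *Mt1* (5.09-fold), *Nqo1* (2.29-fold), the microsomal transferase *Mgst3* (2.19-fold), the carbonyl reductase *Cbr1* (2.16-fold), the theta-class transferase *Gstt2* (2.03-fold) and *Gsta2* (1.63-fold). In WT mice restriction raised 9 and lowered 4, where 3.41% of all probe sets were called higher and 2.63% lower in WT-DR vs WT-Control (2.85% and 3.51% of genes). All 6 genes raised in *Ercc1*Δ/- mice were among the 9 raised in WT mice (66.7% of the 9), and these comparisons have no mouse in common. Over all genes, 59.4% of those raised in *Ercc1*Δ/- mice were raised in WT mice, and 38.4% in the other direction.

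In the DR 30% mice *Nqo1* read 7.94, 8.22, 8.07, 8.09 and 8.22, above all Control mice (1.20 ± 0.15, adjusted p = 1.9e-05, limma). In the WT-DR mice it read 7.28, 7.36, 7.10, 7.25 and 7.06, above all WT-Control mice (1.57 ± 0.15, adjusted p = 1.1e-07, limma). The level in restricted WT livers thus overlapped with that in *Ercc1*Δ/- livers fed ad libitum, and DR 30% had the highest mean of the 5 groups (8.11). *Gsta2* read 10.86, 11.12, 10.82, 11.34 and 11.32 in DR 30% and 9.65, 9.51, 9.75, 9.77 and 10.12 in WT-DR. Its rise in WT mice was free of overlap (1.11 ± 0.20, adjusted p = 3.9e-04), and that in *Ercc1*Δ/- mice was not (0.70 ± 0.20, adjusted p = 0.0309, limma) and was lost when any of 5 single mice was left out and with only the groups compared in the model (adjusted p = 0.0897, limma). *Gstm3* read 10.12, 10.13, 9.89, 10.33 and 10.41 in WT-DR (0.87 ± 0.17, adjusted p = 9.8e-04, limma) and 10.61, 11.20, 11.26, 11.70 and 11.33 in DR 30% (0.54 ± 0.17, adjusted p = 0.0545, limma). The difference of *Gstm3* in *Ercc1*Δ/- mice was called by its other, dimmer probe set (0.89, adjusted p = 0.00483), by the mean of both (0.72, adjusted p = 0.0117), in the values per gene (0.66, adjusted p = 0.0216, limma) and without Control animal 321 or DR 30% animal 362.

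*Cbr1*, which reduces carbonyls of prostaglandins and xenobiotics, read 9.56, 9.74, 9.37, 9.63 and 9.62 in WT-Control, 9.82, 9.49, 9.69, 9.67 and 9.74 in Control, 10.93, 10.78, 10.99, 11.11 and 11.03 in WT-DR and 10.99, 10.96, 10.67, 10.54 and 10.79 in DR 30%. All 10 restricted mice were above all 10 mice on control diet fed ad libitum. The log2 fold changes were 1.38 ± 0.10 in WT mice (adjusted p = 9.5e-10) and 1.11 ± 0.10 in *Ercc1*Δ/- mice (adjusted p = 1.2e-07, limma), and genotype moved it by 0.10 ± 0.10 on control diet (adjusted p = 0.615, limma). Its neighbour on chromosome 16, *Cbr3*, had the reverse pattern, with differences of 0.61 and 0.74 by genotype and -0.02 and 0.12 by restriction.

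*Mgst3* read 7.88, 7.92, 7.70, 7.54 and 7.80 in WT-Control, 9.34, 8.85, 9.18, 9.23 and 9.29 in WT-DR, 8.44, 7.55, 7.60, 7.57 and 8.04 in Control and 9.26, 8.92, 9.03, 8.76 and 8.88 in DR 30%. Restricted mice were above their controls in both genotypes (1.41 ± 0.16, adjusted p = 1.3e-06, and 1.13 ± 0.16, adjusted p = 9.4e-05, limma). *Gstt2* read 10.08, 10.13, 9.94, 9.90 and 9.53 in WT-Control, 10.98, 11.21, 10.85, 10.56 and 10.76 in WT-DR, 10.24, 10.04, 10.36, 10.47 and 10.50 in Control and 11.41, 11.22, 11.36, 11.27 and 11.45 in DR 30%. It too had no overlap between fed and restricted mice of a genotype (0.96 ± 0.11, adjusted p = 2.5e-06, and 1.02 ± 0.11, adjusted p = 5.0e-06, limma).

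By their brightest probe sets the metallothioneins showed a larger response to restriction, and a larger spread between mice, than the genes above. *Mt1*, read by a probe set that may also detect related genes, and whose promoter window with 3 metal response element cores is printed above, read 9.17, 10.12, 9.57, 8.38 and 8.17 in WT-Control, 11.70, 12.07, 13.16, 12.69 and 13.05 in WT-DR, 8.21, 8.70, 10.89, 10.21 and 8.72 in Control and 11.13, 12.89, 12.51, 10.89 and 11.04 in DR 30%. The rise was 10.9-fold in WT mice (3.45 ± 0.49, adjusted p = 2.1e-05) and 5.09-fold in *Ercc1*Δ/- mice (2.35 ± 0.49, adjusted p = 0.00317, limma), and the lowest restricted *Ercc1*Δ/- mouse equalled the highest fed one to within the last digit. A second, much dimmer probe set of *Mt1* (mean 5.17) gave 1.61 in *Ercc1*Δ/- mice (adjusted p = 0.00951) but 0.86 in WT mice, which was not called (adjusted p = 0.133, limma), so that its interaction, at 0.76, had the opposite sign to the -1.10 of the brighter one, with neither interaction called. *Mt2*, in the values per gene, read 5.53 to 7.75 in WT-Control, 9.77 to 12.23 in WT-DR, 6.53 to 8.97 in Control and 8.95 to 11.69 in DR 30%. It rose 25.5-fold in WT mice (4.67 ± 0.59, adjusted p = 4.7e-06) and 6.02-fold in *Ercc1*Δ/- mice (2.59 ± 0.59, adjusted p = 0.0053, limma), and the same mice were high for both genes, *Mt1* and *Mt2*, within Control and within DR 30%.

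Restriction of WT mice also changed genes that were not called in *Ercc1*Δ/- mice. *Pgd*, the phosphogluconate dehydrogenase that makes NADPH in the pentose phosphate pathway, read 9.18, 9.01, 9.50, 9.10 and 9.80 in WT-Control and 10.69, 10.54, 11.33, 11.42 and 10.63 in WT-DR (1.60 ± 0.24, adjusted p = 5.3e-05, limma). In *Ercc1*Δ/- mice it read 10.34, 9.78, 9.42, 9.08 and 9.14 in Control and 10.58, 9.73, 9.35, 9.49 and 9.42 in DR 30% (0.16 ± 0.24, adjusted p = 0.767, limma), and 1 mouse in each of these groups stood above the others. *Abcc4*, a basolateral exporter of conjugates, was dim at 4.21, 4.12, 4.06, 4.01 and 3.96 in WT-Control and rose to 5.08, 4.61, 5.28, 5.23 and 5.30 in WT-DR (1.03 ± 0.12, adjusted p = 1.8e-06, limma). In *Ercc1*Δ/- mice it went from 4.33, 4.58, 4.24, 4.60 and 4.20 to 5.27, 5.09, 4.91, 4.64 and 4.94 (0.58 ± 0.12, adjusted p = 0.00299, limma), just under the fold change asked for.

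The 4 genes that fell in WT-DR were *Gstm6*, *Gclc*, *Gstp1* and the aldehyde oxidase *Aox1*. *Gstm6*, a mu-class transferase, went from 9.11, 8.80, 8.69, 8.86 and 9.06 to 7.71, 7.50, 7.26, 7.32 and 7.69 (-1.41 ± 0.17, adjusted p = 3.0e-06, limma), and *Gclc* to 10.79, 10.73, 11.09, 10.84 and 10.89 (-0.96 ± 0.14, adjusted p = 4.4e-05, limma). *Aox1* went from 9.58, 9.86, 10.35, 10.01 and 9.88 to 9.23, 9.19, 9.15, 8.96 and 9.09 (-0.81 ± 0.15, adjusted p = 3.9e-04, limma), and *Gstp1*, the pi-class transferase, from 13.41 to 13.67 to a range of 12.51 to 12.94 (-0.81 ± 0.10, adjusted p = 3.2e-06, limma). No WT-DR mouse overlapped with WT-Control in any of the 4. In DR 30% the same genes had lower means than in Control, by -0.41, -0.37, -0.54 and -0.48 in the order *Gstm6*, *Gclc*, *Aox1* and *Gstp1*, and none was called. Of these, *Gstp1* (adjusted p = 0.0029) and *Aox1* (adjusted p = 0.0222, limma) passed the FDR and missed only the fold change asked for. For *Gstp1* all DR 30% mice, at 12.84 to 13.22, were below all Control mice, at 13.34 to 13.69. Restriction also lowered 6 of 6 genes known for higher expression in male mouse liver (median log2 fold change -4.51 in WT and -2.92 in *Ercc1*Δ/- mice) and raised 4 of 4 known for higher expression in females in WT mice and 3 of 4 in *Ercc1*Δ/- mice. The part of that shift in the values of the genes described here was not tested.

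*Gclm*, *Gsr*, *Txnrd1*, *Hmox1* and *Keap1* were not called under restriction either. *Gclm* read 11.22, 11.09, 11.29, 11.25 and 11.17 in WT-DR and 11.35, 11.43, 11.34, 11.44 and 11.38 in DR 30%, so that all DR 30% mice were above all WT-DR mice, by 0.19 on the log2 scale. *Gsr* read 9.07, 9.33, 9.19, 9.25 and 9.21 in WT-DR and 9.13, 9.21, 9.17, 9.07 and 9.15 in DR 30%. *Txnrd1*, which also holds a core of the antioxidant response element in its window, read 9.73, 9.55, 9.69, 9.67 and 9.79 in WT-DR and 9.53, 9.64, 9.56, 9.77 and 9.75 in DR 30%, and its log2 fold changes ran from -0.08 to 0.10 over the 7 comparisons. *Hmox1* read 5.03, 4.81, 4.76, 5.79 and 5.41 in WT-DR and 5.51, 5.97, 6.51, 5.46 and 5.42 in DR 30%, with the groups overlapping. *Keap1*, in the values per gene, read 6.94, 6.61, 6.74, 6.93 and 6.76 in WT-DR and 6.60, 6.75, 6.69, 6.67 and 6.43 in DR 30%.

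Whether restriction acted differently in the genotypes was tested by the interaction, which is DR 30% minus Control, less WT-DR minus WT-Control. Of the 40 genes, 1 was called higher, beside 0.496% of all probe sets, and 1 lower, beside 0.306% (0.738% and 0.228% of genes). The response of *Gstm6* was less negative in *Ercc1*Δ/- mice (1.0 ± 0.24, adjusted p = 0.0424, limma), and that of *Pgd* was less positive (-1.44 ± 0.34, adjusted p = 0.0415, limma). For *Pgd* the other 2 probe sets gave -1.42 and -1.56. Both calls lie near the threshold, that of *Gstm6* was lost when any 1 of 19 of the 24 mice was left out and that of *Pgd* with any 1 of 15, and neither was made with only these 4 groups in the model. The dimmer probe set of *Nfe2l2* (-1.34, above) and the mean of both its probe sets (-0.82, adjusted p = 0.0187, limma) passed this test too, and the brighter probe set did not (-0.30, adjusted p = 0.408, limma). For *Nqo1*, *Gsta2*, *Cbr1*, *Mgst3*, *Gstt2* and *Mt1* the interaction was between -1.10 and 0.06 and was not called (adjusted p of 0.371 to 0.913, limma).

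Under restriction, *Ercc1*Δ/- livers had higher levels of 10 of the 40 genes than WT livers and a lower level of 1, where 2.6% of all probe sets were called higher and 1.22% lower in DR 30% vs WT-DR (4.22% and 1.22% of genes). Of the 7 genes raised by genotype on control diet, 6 were among these 10 (85.7% of the 7 and 60% of the 10), namely *Gsta2*, *Srxn1*, *Gstm3*, *Nqo1*, *Cbr3* and *Ugdh*, and no mouse is shared by these comparisons. Over all genes, 63.5% of those raised on control diet were raised under restriction, and 37.4% the other way round. The median log2 fold change of the 40 was 0.28, beside -0.00 over all genes, and in 16 of the 40 every DR 30% mouse was above every WT-DR mouse (40%), beside 7.94% of genes.

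*Srxn1*, whose difference by restriction was -0.25 in WT and -0.00 in *Ercc1*Δ/- mice and was not called, differed by genotype under restriction too and read 7.63, 7.86, 7.13, 7.43 and 7.45 in WT-DR and 8.20, 8.55, 8.56, 8.79 and 8.70 in DR 30% (1.06 ± 0.13, adjusted p = 1.0e-05, limma). *Ugdh* read 10.42, 10.24, 10.19, 10.33 and 10.32 in WT-DR and 10.60, 11.17, 10.81, 11.12 and 11.00 in DR 30% (0.64 ± 0.12, adjusted p = 5.6e-04, limma). Both were free of overlap. Both hold the core of an antioxidant response element in the stretches printed above. The windows of *Abcc2*, *Gclm*, *Mgst1*, *Prdx1*, *Sod1* and *Txnrd1* hold it too, and these genes were not called in any comparison by their brightest probe set. Those of *Nqo1*, *Gsta2* and *Gstm3*, which were called by genotype under both diets, do not. A link between the core and the response was not tested. *Abcc3*, a further exporter of glucuronides, read 9.79, 8.28, 9.00, 9.61 and 9.77 in WT-DR and 10.09, 10.28, 10.53, 10.73 and 10.16 in DR 30% (1.07 ± 0.23, adjusted p = 0.00272, limma). *Gclc* was 1.54-fold higher in DR 30%, at 11.59, 11.36, 11.25, 11.81 and 11.45 (0.63 ± 0.14, adjusted p = 0.00471, limma), the microsomal epoxide hydrolase *Ephx1* was 1.66-fold higher and *Gstm6*, at 7.55, 8.18, 8.52, 8.35 and 8.10, 1.56-fold higher. These 3 had been lower in WT-DR than in WT-Control, by -0.96, -0.52 and -1.41, and had not been called by genotype on control diet. The gene with the lower level was *Pgd* (-1.21 ± 0.24, adjusted p = 0.00157, limma), and *Tkt*, the transketolase of the same pathway, differed by -0.51 (adjusted p = 2.7e-04) with no overlap, below the fold change asked for, and was called in the values per gene (-0.63, adjusted p = 6.6e-05, limma). Of the macrophage and Kupffer cell markers 6 of 7 were called higher in this comparison, and their part in the result was not tested.

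**Figure D4:**
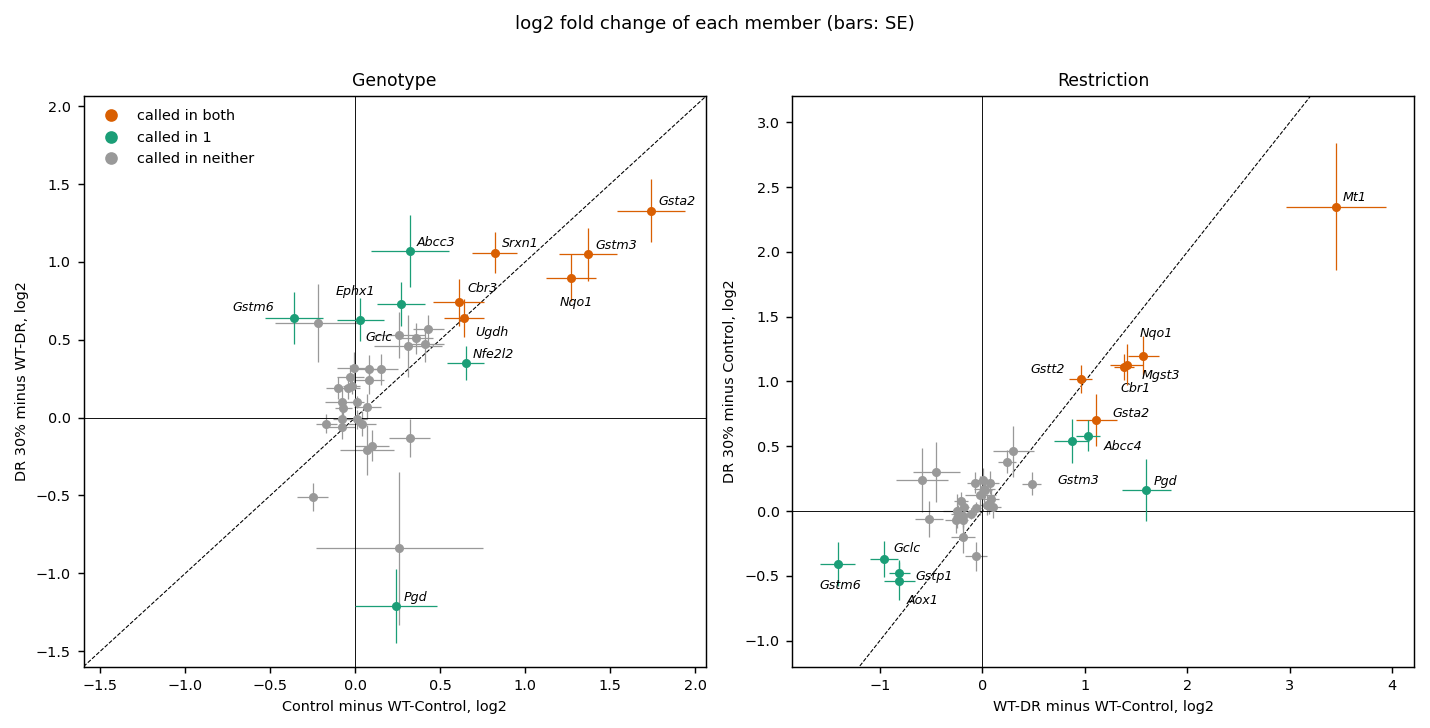
Log2 fold change of each of the 40 genes (points, bars SE) by genotype (left, control diet across and restriction upwards) and by restriction (right, WT across and *Ercc1*Δ/- upwards), where the axes of a panel share no mouse and the dashed line marks equal values. *Gsta2*, *Gstm3*, *Nqo1* and *Srxn1* lie far from 0 on both axes on the left, *Mt1* lies farthest out on the right, and *Pgd* lies away from the line in both panels.

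Rapamycin changed 0 of the 40 genes relative to Control, where 0.0244% of all probe sets were called higher and 0.00665% lower (0.0469% and 0.00586% of genes, limma). At an unadjusted p under 0.05 there were 6 of the 40, all higher (15%, beside 10.7% of all genes in either direction), and the median log2 fold change was 0.06. The nearest to a call were *Nqo1*, at 7.62, 8.00, 7.41 and 7.55 (0.73 ± 0.16, 95% interval 0.41 to 1.06, adjusted p = 0.0781, limma), and *Gstt2*, at 10.78, 11.07, 10.95 and 10.90 (0.61 ± 0.12, adjusted p = 0.0633, limma). All 4 Rapa 14 ppm mice were above all Control mice for *Gstt2*, whereas for *Nqo1* the highest Control mouse, at 7.49, was above the lowest Rapa 14 ppm mouse. In the values per gene both were called (*Nqo1* 0.83 ± 0.17, adjusted p = 0.0398, and *Gstt2* 0.66 ± 0.13, adjusted p = 0.0384, limma), so that these results lie at the edge of what 4 and 5 mice can show. In 2 of the 40 genes (5%) every Rapa 14 ppm mouse was above every Control mouse, beside 1.13% of all genes. The gene beside *Gstt2* was *Ephx1*, at 11.82 to 12.43 in Rapa 14 ppm and 11.37 to 11.79 in Control, which was not called.

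The other genes whose values are given in every mouse were not called against Control under rapamycin either. *Gsta2* read 10.67, 11.10, 11.00 and 10.85 and *Gstm3* 11.05, 11.15, 10.70 and 10.86, each overlapping with Control. *Srxn1* read 8.69, 8.70, 8.30 and 8.60, *Gclc* 12.05, 11.46, 11.41 and 11.59, *Gclm* 11.44, 11.32, 11.07 and 11.34, and *Gsr* 9.12, 9.05, 8.85 and 9.11. *Txnrd1* read 9.74, 9.66, 9.47 and 9.58, *Hmox1* 5.77, 4.80, 5.85 and 5.41, and *Nfe2l2* 10.48, 10.53, 10.45 and 10.50. *Keap1*, in the values per gene, read 6.61, 6.37, 6.30 and 6.52 (-0.18 ± 0.08, adjusted p = 0.417, limma). *Ugdh* had its highest mean under rapamycin, at 11.52, 11.46, 11.14 and 11.37, with a difference from Control of 0.24 ± 0.13 (adjusted p = 0.555, limma). The 95% intervals of the differences from Control ran from -0.19 to 0.15 for *Gsr*, from -0.19 to 0.17 for *Txnrd1* and from -0.61 to 0.46 for *Hmox1*.

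Rapamycin and restriction were compared directly in *Ercc1*Δ/- mice. Of the 40 genes, 1 was higher in Rapa 14 ppm than in DR 30% and 3 were lower, where 0.704% of all probe sets were called higher and 0.902% lower (0.843% and 1.27% of genes). The 3 lower genes were *Mt1*, at 10.04, 9.04, 9.63 and 9.11 (-2.24 ± 0.52, adjusted p = 0.0119), *Cbr1*, at 10.02, 9.94, 9.72 and 9.60 (-0.97 ± 0.10, adjusted p = 8.1e-06), and *Abcc4*, at 4.41, 4.37, 4.25 and 4.36 (-0.63 ± 0.13, adjusted p = 0.00495, limma), whose call was lost in the values per gene (-0.55). For each of the 3 all Rapa 14 ppm mice were below all DR 30% mice. The higher gene was *Aox1*, at 10.50, 10.32, 9.97 and 10.47, against 9.25, 9.54, 9.40, 10.21 and 9.88 in DR 30% (0.66 ± 0.16, adjusted p = 0.0149, limma), a call lost with only the groups compared in the model (adjusted p = 0.0778, limma). *Mt2* behaved as *Mt1* did in the values per gene (-2.38 ± 0.63, adjusted p = 0.0209, limma). *Nqo1* was -0.46 ± 0.16 apart (adjusted p = 0.0946, limma) and *Mgst3*, at 8.12, 8.98, 8.38 and 8.33 under rapamycin, -0.52 ± 0.17 (adjusted p = 0.0812, limma), values between Control and DR 30% whose difference from either was not called for *Mgst3*, nor for *Nqo1* in this table.

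A further list held 52 regulators, partners and other targets or antioxidant genes of the pathway, of which 46 were measured. In Control vs WT-Control 3 were higher (*Gstm5*, *Osgin1* and *Ptgr1*) and 2 lower (*Me1* and *Msra*), beside 2.49% and 1.11% of all genes. *Osgin1*, a growth inhibitor induced by oxidative stress, was 2.61-fold higher in Control than in WT-Control and 2.59-fold lower in DR 30% than in Control (adjusted p = 0.00591 and 0.00579, limma). *Me1*, the malic enzyme that also supplies NADPH, was 2.09-fold lower in Control than in WT-Control and 2.86-fold lower in DR 30% than in WT-DR (adjusted p = 0.0235 and 9.1e-04, limma). In DR 30% vs Control 3 were higher (*Maff*, *Gsto1* and *Gstt3*) and 2 lower (*Osgin1* and *Abcg2*), beside 1.84% and 1.22% of all genes. In WT-DR vs WT-Control 3 were higher (*Gstt3*, *Glrx* and *Pir*) and 3 lower (*Chac1*, *Msrb1* and *Abcg2*), beside 2.85% and 3.51%. In DR 30% vs WT-DR 2 were higher (*Akr1b8* and *Ptgr1*) and 2 lower (*Me1* and *Gstt3*), beside 4.22% and 1.22%, and in Rapa 14 ppm vs DR 30% 1 was higher (*Abcg2*) and 2 lower (*Gsto1* and *Gstt3*), beside 0.843% and 1.27%. The interaction called 0 of the 46. *Gstt3*, of the same theta class as *Gstt2*, rose 4.4-fold in *Ercc1*Δ/- mice and 4.66-fold in WT mice and was 5.17-fold lower in Rapa 14 ppm than in DR 30% (adjusted p = 3.7e-06, 4.4e-07 and 8.1e-06, limma). *Maff*, a small MAF partner of NRF2, was the 1 gene of the list called in Rapa 14 ppm vs Control (0.0469% of all genes higher), 2.67-fold higher (1.42 ± 0.26, adjusted p = 0.0485, limma), and it was 2.25-fold higher in DR 30% than in Control (adjusted p = 0.00374, limma). The call of *Maff* under rapamycin lies near the threshold, and whether it holds under the alternatives was not examined. At these thresholds the paper reports no gene as significantly changed between these diets.

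The remaining measured genes were called in 0 comparisons by their brightest probe set. They were *Gsta4*, *Gstm1*, *Gstm2*, *Gstm4*, *Gstt1*, *Gclm*, *Gss*, *Gsr*, *Txnrd1*, *Txn1*, *Hmox1*, *Abcc2*, *Tkt*, *Taldo1*, *Mgst1*, *Slc7a11*, *Prdx1*, *Cat*, *Sod1*, *Sod2* and *Gpx1*. *Gsta4*, which detoxifies hydroxynonenal, was 1.48-fold higher in DR 30% than in WT-DR (0.57 ± 0.09, adjusted p = 7.6e-05, limma), just under the fold change asked for, and passed it without DR 30% animal 362 (0.61) or 365 (0.60). Its differences by genotype on control diet (0.43 ± 0.09, adjusted p = 0.00222) and by restriction in *Ercc1*Δ/- mice (0.38 ± 0.09, adjusted p = 0.00523, limma) were 1.35-fold and 1.31-fold, and none of these 3 pairs of groups overlapped. *Gsta3*, in the values per gene, had group means of 12.54 to 12.74 and was called in 0 comparisons.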

How the data were processed

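Liver RNA of 24 mice in 5 groups had been hybridised by the authors to Affymetrix mouse arrays, 1 array per mouse. With RMA in the arrayanalysis.org pipeline the authors made log2 values, deposited as 2 tables, 1 of 45141 probe sets and 1 of 17306 probe sets defined by gene. Versions and which arrays were normalized together are not given in the sources used here. RMA forces arrays to 1 distribution, so that only changes relative to other genes are seen, and it compresses low values.

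Symbols came from the array annotation, brought to current RefSeq symbols. Of the probe sets, 28898 had exactly 1 gene, 551 had several, and 15692 are not named here. A linear model of the 5 group means without covariates was fitted to all 45141 probe sets (limma 3.58.1, R 4.3.3), and p-values were adjusted by Benjamini-Hochberg within each of 7 comparisons. A call needs both an FDR below 0.05 and a change of 1.5-fold or more, as in the study's methods. The fit was tested on simulated data. Values in every mouse are given for genes called, up to 6 per comparison by size, and for *Nqo1*, *Gclc*, *Gclm*, *Gsr*, *Txnrd1*, *Srxn1*, *Hmox1*, *Nfe2l2* and *Keap1*. The genes, lists and this rule were chosen with earlier results of these data known. A marker sum is log2 of the summed linear values. Alternatives tried were leaving out each mouse, restricting the model to the groups compared, the table of values per gene, the mean of a gene's probe sets, removal of dim probe sets, quantile normalization anew, median centring, trended and robust variances, a stricter change of 2-fold and none. The number of arrays limits the precision.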

Additional observations from a re-analysis of the deposited data

Results flagged for a closer look

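In 200 groups of 4 or 5 mice, 1 for each measured gene and group, 11 had a mouse far from the others by Dixon's test, and chance gives this in about 1 in 20 groups. In WT-Control these were *Nqo1* at 5.91 (others 5.53 to 5.64) and *Taldo1* at 10.21 (10.49 to 10.57), both in animal 402, *Gstm4* at 9.00 (8.68 to 8.77) and *Nfe2l2* at 9.55 (9.97 to 10.13). In Control they were *Gclc* at 11.27 (11.88 to 12.07), *Gss* at 8.45 (8.71 to 8.80), *Gpx1* at 13.89 (13.76 to 13.79) and *Aox1* at 10.42 (10.11 to 10.18), each in another animal. *Ephx1* read 11.11 in 1 WT-DR mouse (others 10.68 to 10.77), *Sod1* 12.54 in 1 DR 30% mouse (12.59 to 12.61) and *Pgd* 9.86 in 1 Rapa 14 ppm mouse (9.44 to 9.49).

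The effect of restriction differed between the genotypes by the interaction test of limma for *Gstm6* (1.0) and *Pgd* (-1.44), with calls near the threshold. Both were lost with only the groups compared in the model, that of *Gstm6* also with renewed quantile normalization and without any 1 of 19 of the 24 mice, and that of *Pgd* when any 1 of 15 mice was left out or variances were trended and robust.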

How the results depend on the processing

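Of 386 values that 9 alternatives gave for the 43 called results, 356 kept the call, 30 lost it and 0 changed sign, and with each of 24 mice left out 980 of 1032 kept it, 52 lost it and 0 changed sign. These totals do not measure how firm the calls are. Without a fold change threshold no call could be lost. Other thresholds, other variances, fewer groups or fewer probe sets leave the fold change and its sign as they were. A mouse left out of a group outside the comparison alters only the estimated spread. With a fold change of 2 the count of genes called became 3 in Control vs WT-Control, 8 in WT-DR vs WT-Control, 1 in the interaction, 5 in DR 30% vs WT-DR and 1 in Rapa 14 ppm vs DR 30%, and without a fold change threshold 11 in DR 30% vs Control, 20 in WT-DR vs WT-Control, 21 in DR 30% vs WT-DR and 8 in Rapa 14 ppm vs DR 30%. The shares of all genes at these other thresholds were not counted, so that these counts have no background to be set beside. In the interaction it was 0 with only the groups compared, 1 with renewed quantile normalization and 1 with trend and robust variances, and 0 to 2 with a mouse left out. In Rapa 14 ppm vs Control it was 2 in the values per gene, 1 with dim probe sets left out, 1 with trend and robust variances, 1 with the mean of all probe sets, and 0 to 2 with a mouse left out (1 without WT-Control animal 405 and 2 without Control animal 327). In Rapa 14 ppm vs DR 30% it was 2 to 6 with a mouse left out, 2 being without DR 30% animal 362. The ranges with a mouse left out were 6 to 7 in Control vs WT-Control, 5 to 7 in DR 30% vs Control, 13 to 15 in WT-DR vs WT-Control and 10 to 14 in DR 30% vs WT-DR.

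With the mean of both probe sets, *Nfe2l2* turned from -0.35 to 0.28 in DR 30% vs Control (adjusted p = 0.153) and from -0.06 to 1.10 in WT-DR vs WT-Control (adjusted p = 9.5e-07, limma), and its interaction of -0.82 was called. Its dimmer probe set rose under restriction in both genotypes (0.92 in *Ercc1*Δ/- and 2.26 in WT mice). Calls lost without 1 mouse were *Nfe2l2* in Control vs WT-Control (WT-Control animal 401, 0.55), *Gclc* and *Ugdh* in DR 30% vs WT-DR (DR 30% animals 368, 0.55, and 365, 0.58) and *Abcc4* in Rapa 14 ppm vs DR 30% (DR 30% animal 362, -0.55). *Gstm6* in DR 30% vs WT-DR and *Aox1* in Rapa 14 ppm vs DR 30% were each lost without either of 2 mice. Animal numbers differ between groups, and no paired analysis was possible because nothing in the labels pairs the mice. Dim genes such as *Slc7a11*, *Abcc4* and *Cbr3* lie where RMA compresses differences.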
